A study of Homo sapiens with 9 samples.

Results

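Transcripts that both small interfering RNAs (siRNAs) against KDM5A moved to the same side of the control were examined in MDA-MB-231, a widely used line of human breast cancer cells with mesenchymal traits. Cells were transfected for 72 h with siRNA 1 against KDM5A (KD1, 3 arrays), siRNA 2 against KDM5A (KD2, 3 arrays) or, as the control, an siRNA that targets luciferase (Luc, 3 arrays), and RNA was read on Illumina bead arrays. All 9 arrays of the series entered the comparison, 6 knockdown arrays against 3 Luc arrays. A feature (the brightest probe of a gene, or a probe without a single gene symbol) was tested when its detection p was under 0.05 on at least 3 of the 9 arrays, which 13076 of 39555 features passed. It was then described as higher or lower when all 6 knockdown values lay above, or all below, the 3 Luc values. By that rule 908 features were higher and 968 lower, 1876 of 13076 tested, and 772 higher and 846 lower features carried a gene symbol.

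KDM5A (RBP2, JARID1A) is an enzyme that strips methyl groups off histone H3 at lysine 4, where methylation is a mark found at active promoters, and works with repressor complexes that hold histone deacetylases. Its ARID domain binds GC-rich DNA. siRNAs of different sequence can share effects through that target, and each siRNA can also act on other transcripts through partial base pairing, so a change seen with both is commonly asked for in knockdown studies.

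No probe carried the symbol KDM5A, so the level of the targeted transcript was not analysed here and the knockdown itself was not checked. Per array, 29.8% to 32.3% of probes were detected on the 6 knockdown arrays and 32.1% to 35.9% on the 3 Luc arrays. All 7 markers listed for this line (VIM, CD44, CAV1, AXL, EGFR, MSN and ZEB1) were detected on 9 arrays, but EGFR (-0.89, adjusted p = 0.00146, with overlap) and AXL (-0.54, adjusted p = 0.0142) fell on the log2 scale and CAV1 lay below Luc on all 6 arrays (-0.28, adjusted p = 0.0873). ESR1, PGR and FOXA1 of luminal cells were detected on no array and KRT19 on 9, with overlap. The summed intensity of 5 epithelial markers was 565.5 to 661.3 on the knockdown arrays and 748.2 to 905.2 on the Luc arrays, and EPCAM, detected on 9, fell by 0.50 (adjusted p = 0.0162). A dimmer EPCAM probe, detected on 3 arrays, overlapped with Luc, with a change of 0.25. Of fibroblast markers, COL1A2, COL3A1, LUM and THY1 were detected on no array and PDGFRA on 9, with overlap. PTPRC of leukocytes was detected on 1 array, but the summed intensity of 6 leukocyte markers was 2627 to 3438 on the knockdown arrays and 1743 to 1897 on the Luc arrays. CD68, a lysosomal protein of macrophages that many tumour lines also express, was the leukocyte marker detected on all 9 arrays, and it rose by 0.77 on the log2 scale (adjusted p = 0.00116), whereas CD14 of monocytes, detected on 7 arrays, fell by 0.73 (adjusted p = 0.00937). The part of these markers in the results below was not tested. The KD1 arrays lay at other slide positions (G, I and K) than the KD2 and Luc arrays, which alternated, so position cannot be told apart from KD1. The labels do not say whether arrays came from separate cultures, so the p-values here reflect no more than array-to-array spread, which may be technical.

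The separation rule is a description, not a test, and the limma fit of the mean of both siRNAs against Luc was read beside it. Values are log2 intensities after background correction and quantile normalization. They compare arrays for 1 probe, never 1 gene with another. Over all tested features, 14.3% lay without overlap (6.94% higher and 7.4% lower), and limma called 17.3% at an adjusted p under 0.05 (7.82% higher, 9.45% lower). Limma called 76.7% of the 908 higher and 78.8% of the 968 lower features. The rule and this contrast use the same values, so a call on a separated feature is not independent support for it. Another 800 called features overlapped with Luc. Scaling moved the split: with median scaling limma called 1383 higher and 1090 lower (1196 and 790 without overlap), and with median scaling over all probes 465 and 2266 (360 and 1715). With the authors' deposited log2 values, the changes of 16 of the 30 genes with the largest gap, and of 47 of 84 named genes, were smaller by over 1.5 times, and with no background correction those of 11 and 28. Without Luc replicate 1 limma called 631 higher and 758 lower, and without Luc replicate 2 it called 600 and 691. In the text, "rose" and "fell" are kept for features that limma called.

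Most of these changes were small. The median change of the mean of both siRNAs was 0.55 on the log2 scale among the 908 higher features and -0.59 among the 968 lower ones. The gap between the nearest knockdown and Luc values had a median of 0.136 among higher and 0.135 among lower features. A change of at least 2-fold was reached by 92 higher and 118 lower features, and with each siRNA by 50 and 38. Detection on all 9 arrays held for 847 higher and 839 lower features. Of the separated features, 36 higher ones were detected on no Luc array and 32 lower ones on no knockdown array, so these entered the test through the brighter group and their fold is a bound. The 2-fold counts above did not use that bound. At the edge of the rule, AUTS2 (3.06e-05) and JPT1 (0.00171) had the smallest positive gaps among higher genes, and COX8A (0) and KLC1 (-0.000605) lay just outside. Among lower genes, SLC22A17 (0.000667) and LIMS2 (0.000833) lay just inside, and UNC93B1 (0) and ZNF182 (-0.00101) just outside.

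HMOX1, the heme oxygenase that opens the heme ring and releases iron, biliverdin and carbon monoxide, showed the widest gap of all higher genes. Its log2 intensities were 9.23, 9.26 and 9.35 on the KD1 arrays and 10.14, 10.36 and 10.28 on the KD2 arrays, against 6.76, 6.46 and 6.64 on the Luc arrays. Every KD2 value lay above every KD1 value, and the nearest knockdown and Luc arrays were 2.47 apart. HMOX1 rose 8.87-fold for the mean of both siRNAs (log2 3.15 ± 0.11 SE, adjusted p = 5.87e-07), by 2.66 with KD1 and 3.64 with KD2. With the deposited values its log2 change was 1.87. RNA came from whole cultures, so more cells with the transcript and more transcript per cell cannot be told apart. GCLM, the modifier subunit of the enzyme that starts glutathione synthesis, had values of 10.86, 10.44 and 10.59 on the KD1 arrays and 10.41, 10.56 and 10.44 on the KD2 arrays, against 9.18, 9.35 and 9.26 on the Luc arrays. No knockdown array came near a Luc array, and GCLM rose 2.44-fold (log2 1.29 ± 0.12 SE, adjusted p = 2.24e-04). PGD, a pentose phosphate enzyme that yields NADPH, read 10.90, 10.91 and 11.13 on the KD1 arrays and 10.86, 10.78 and 10.72 on the KD2 arrays, against 9.74, 9.75 and 9.78 on the Luc arrays, and rose 2.19-fold with groups that did not overlap (log2 1.13 ± 0.10 SE, adjusted p = 2.15e-04).

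These genes belong to a list of 42 tested genes of heme and iron handling and targets of NRF2, a transcription factor that responds to oxidants. Of them, 10 were higher and 2 lower without overlap (23.8% and 4.76%, against 6.94% and 7.4% of all features), and limma called 11 higher and 1 lower (28.6%, against 17.3%). The median change of the list was 0.20 on the log2 scale, against -0.0028 over all features. But limma called 19 of 42 different between KD1 and KD2 (45.2%, against 27.4% of all features). PIR, an iron-binding nuclear protein, rose by 0.88 (adjusted p = 0.0063). AKR1C3, an aldo-keto reductase of steroids, rose by 0.86 (adjusted p = 0.00102). TFRC, the transferrin receptor that brings iron into the cell, rose by 0.76 (adjusted p = 0.00241), and MAFG, a small MAF partner of NRF2, by 0.66 (adjusted p = 0.00809). ALAS1 (0.50), TALDO1 (0.36) and PRDX1 (0.33) lay above Luc on all 6 arrays with an adjusted p above 0.05. Second probes of MAFG, ALAS1 and PRDX1 overlapped with Luc. SLC40A1, the iron exporter ferroportin, fell by 1.00 on the log2 scale (adjusted p = 7.80e-04), with changes of -1.68 with KD1 and -0.33 with KD2, but a dimmer probe of SLC40A1 overlapped with Luc. BLVRB, which reduces biliverdin, lay below Luc on all 6 arrays, with a log2 change of -0.48 (adjusted p = 0.12). Not all NRF2 targets lay on 1 side in both siRNAs: NQO1 showed log2 changes of 0.25 with KD1 and -0.47 with KD2 and GCLC 1.04 with KD1 and -0.03 with KD2, both chosen after their values were seen.

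**Figure D1:**
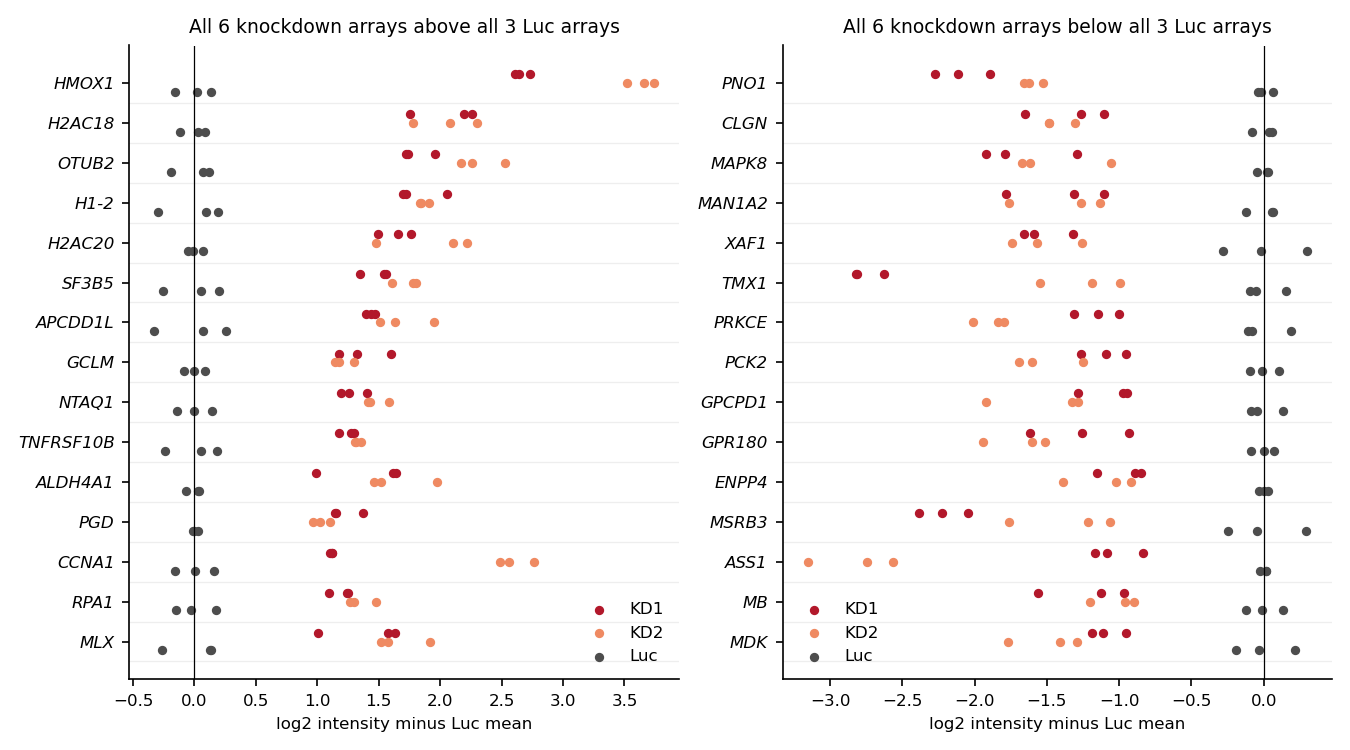
Log2 intensity minus the Luc mean on each array, for the 15 higher (left) and 15 lower (right) named genes with the largest gap; each point is 1 array, KD1 and KD2 drawn above Luc in each row. The 6 knockdown points of HMOX1 lie 2.47 or more above its Luc points, and those of PNO1 lie 1.49 or more below.

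Histone genes formed the list with the largest share of separated members among those described. Histones package DNA, and the replication-dependent copies sit in clusters and are made mainly in S phase, mostly as transcripts without a poly(A) tail, whereas H2AZ1 and macroH2A have ordinary tailed transcripts. The labelling kit copies RNA from the poly(A) tail, so the arrays read the tailed form of the clustered genes. Near-identical copies may share a probe, so each symbol stands for the probe's gene and perhaps its copies. Of 28 tested members, 13 lay above and 2 below Luc on all 6 arrays (53.6%, against 14.3% of all features). Limma called 13 higher and 1 lower (50%, against 17.3%), and the median change was 0.49, with 0.56 for KD1 and 0.50 for KD2.

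H2AC18, an H2A gene of the chromosome 1 cluster, read 11.37, 10.86 and 11.30 on the KD1 arrays and 10.89, 11.19 and 11.41 on the KD2 arrays, against 9.14, 9.19 and 8.99 on the Luc arrays. The groups were far apart, and H2AC18 rose 4.18-fold (log2 2.06 ± 0.15 SE, adjusted p = 1.08e-04), by 2.07 with KD1 and 2.06 with KD2. A second probe of H2AC18 also lay above Luc on all 6 arrays, with a change of 1.91. H2AC20, a second H2A gene of that chromosome, read 10.39, 10.23 and 10.50 on the KD1 arrays and 10.21, 10.84 and 10.95 on the KD2 arrays, against 8.68, 8.72 and 8.80 on the Luc arrays, again without overlap. It rose 3.45-fold (log2 1.79 ± 0.16 SE, adjusted p = 2.15e-04). H1-2, a linker histone gene on chromosome 6, read 11.10, 11.07 and 11.43 on the KD1 arrays and 11.22, 11.21 and 11.28 on the KD2 arrays, against 9.57, 9.47 and 9.08 on the Luc arrays. Its log2 changes were 1.83 with KD1 and 1.86 with KD2 (a difference of -0.04 with a standard error of 0.16), and H1-2 rose 3.59-fold (log2 1.84 ± 0.14 SE, adjusted p = 1.08e-04). H2BC21 read 7.03, 6.28 and 7.14 on the KD1 arrays and 6.59, 6.87 and 6.59 on the KD2 arrays, against 4.98, 5.43 and 4.67 on the Luc arrays, with detection on 1 Luc array, and rose 3.29-fold (log2 1.72 ± 0.22 SE, adjusted p = 8.84e-04).

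Further histone genes rose by smaller amounts. H4C8 rose by 1.18 (adjusted p = 0.00156), H2AJ by 1.01 (adjusted p = 4.35e-04) and H3C3 by 0.92 (adjusted p = 0.00139). H2AC11 (0.71), MACROH2A1 (0.65), H2AC6 (0.62), H2BC12 (0.59), H3-5 (0.52) and H2BC11 (0.50) were called as well. Against that direction, H4C3 fell by 0.82 on the log2 scale (adjusted p = 0.00343), and H2AZ1, a variant found at promoters, lay below Luc on all 6 arrays with a change of -0.29 (adjusted p = 0.0688). None of the 15 separated histone genes was called different between KD1 and KD2 by limma at an adjusted p under 0.05, against 22.9% of all separated features. Of the 15, 1 had an unadjusted p under 0.05. These 15 were chosen for lying on 1 side of Luc with both siRNAs. Among all 28 tested histone genes limma called 5 different between KD1 and KD2 (17.9%, against 27.4% of all features).

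The promoters of 2 of these genes, which rose 4.18-fold and 3.45-fold, are shown because each holds 2 kinds of box known from histone promoters. They are 300 bases each, mostly upstream of the gene's start, 5′ to 3′ on the gene's strand, from RefSeq on GRCh38.p14, at chr1:149842701-149843000 (minus strand) for H2AC18 and chr1:149886668-149886967 (plus strand) for H2AC20. Capitals mark CCAAT (the box bound by NF-Y) and TATAAA, each searched on both strands, so that they also appear as ATTGG and TTTATA.
H2AC18: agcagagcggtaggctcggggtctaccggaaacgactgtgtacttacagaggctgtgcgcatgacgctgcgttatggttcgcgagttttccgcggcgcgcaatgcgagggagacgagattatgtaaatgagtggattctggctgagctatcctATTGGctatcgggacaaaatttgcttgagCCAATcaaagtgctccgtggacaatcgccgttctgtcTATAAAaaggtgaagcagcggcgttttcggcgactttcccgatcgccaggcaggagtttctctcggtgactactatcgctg
H2AC20: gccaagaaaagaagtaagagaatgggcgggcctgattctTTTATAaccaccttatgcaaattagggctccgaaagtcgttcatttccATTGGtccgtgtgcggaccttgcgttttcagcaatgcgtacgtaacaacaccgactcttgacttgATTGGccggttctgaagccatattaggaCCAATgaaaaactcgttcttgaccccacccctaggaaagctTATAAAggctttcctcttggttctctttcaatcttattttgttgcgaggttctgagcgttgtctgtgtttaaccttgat

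Of the 12 higher histone genes with a promoter in the RefSeq table, 10 held CCAAT (83.3%) and 7 held TATAAA (58.3%). Over all 8462 tested genes with a promoter the shares were 37.6% and 5.67%, and over all 27305 promoters 35.7% and 12%. Among the 26 tested histone genes of either direction they were 76.9% and 61.5%. The promoter of H1-2, which rose 3.59-fold and is not shown, held 1 CCAAT and 0 TATAAA.

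Some of the genes that answer amino acid shortage lay low with both siRNAs. ATF4 is a transcription factor made when amino acids run short or the endoplasmic reticulum is stressed, and it drives amino acid transporters, serine and asparagine synthesis and tRNA charging. Of 36 tested members of its list, none lay above Luc on all 6 arrays and 15 lay below (41.7%, against 7.4% of all features). Limma called 29 lower and 0 higher for the mean of both siRNAs (80.6%, against 17.3% of all features), with 0 higher and 33 lower at an unadjusted p under 0.05. But 28 of 36 differed between the siRNAs (77.8%, against 27.4%), and the median change was -0.19 with KD1 and -1.09 with KD2. SLC38A1, a glutamine transporter, read 10.73, 10.57 and 10.23 on the KD1 arrays and 9.74, 9.75 and 9.51 on the KD2 arrays, against 11.49, 11.80 and 11.67 on the Luc arrays. All 6 knockdown arrays were below Luc, KD2 lowest, and SLC38A1 fell 2.96-fold (log2 -1.57 ± 0.14 SE, adjusted p = 2.15e-04). PCK2, the mitochondrial enzyme that makes phosphoenolpyruvate, read 9.27, 9.58 and 9.44 on the KD1 arrays and 9.28, 8.93 and 8.84 on the KD2 arrays, against 10.44, 10.64 and 10.52 on the Luc arrays. It fell 2.47-fold (log2 -1.31 ± 0.13 SE, adjusted p = 3.01e-04), with no overlap.

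Of the serine pathway, PSAT1 and PSPH lay below Luc with both siRNAs, whereas PHGDH, its first enzyme, showed log2 changes of 0.09 with KD1 and -1.37 with KD2 and overlapped with Luc. PSAT1, an aminotransferase of serine synthesis, read 12.39, 12.50 and 12.46 on the KD1 arrays and 12.03, 11.86 and 11.74 on the KD2 arrays, against 13.12, 13.13 and 13.08 on the Luc arrays, without overlap, and fell 1.93-fold (log2 -0.95 ± 0.11 SE, adjusted p = 4.49e-04), more with KD2 than KD1 (adjusted p = 0.00618 for the difference). SLC1A5, a neutral amino acid carrier, read 10.05, 10.34 and 10.11 on the KD1 arrays and 9.78, 9.68 and 9.64 on the KD2 arrays, against 11.07, 10.80 and 10.99 on the Luc arrays and fell 2.03-fold (log2 -1.02 ± 0.12 SE, adjusted p = 4.74e-04). The 2 chains of the large neutral amino acid transporter, SLC7A5 (-0.67, adjusted p = 0.00467) and SLC3A2 (-0.71, adjusted p = 0.00234), fell as well. SHMT2, MTHFD2 and MTHFD1L, of mitochondrial one-carbon metabolism, and PSPH, the last step of serine synthesis, were also called lower. ASNS, asparagine synthetase, read 13.91, 13.93 and 13.89 on the KD1 arrays and 12.76, 12.55 and 12.89 on the KD2 arrays, against 14.18, 14.10 and 14.33 on the Luc arrays. It lay below Luc on all 6 arrays and fell by 0.88 on the log2 scale (adjusted p = 9.25e-04), with changes of -0.29 with KD1 and -1.47 with KD2 (adjusted p = 1.52e-04 for the difference). A second ASNS probe, detected on 9 arrays, overlapped with Luc, with changes of 0.01 with KD1 and -0.82 with KD2 (adjusted p = 0.599 for the mean). The genes with the largest KD2 changes were not shared: DDIT3 read -0.12 with KD1 and -2.96 with KD2, TRIB3 -0.23 with KD1 and -2.66 with KD2 and GDF15 0.20 with KD1 and -3.10 with KD2. These, and ATF4 itself (-0.08 with KD1 and -0.68 with KD2), overlapped with Luc and were chosen after their values were seen.

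**Figure D2:**
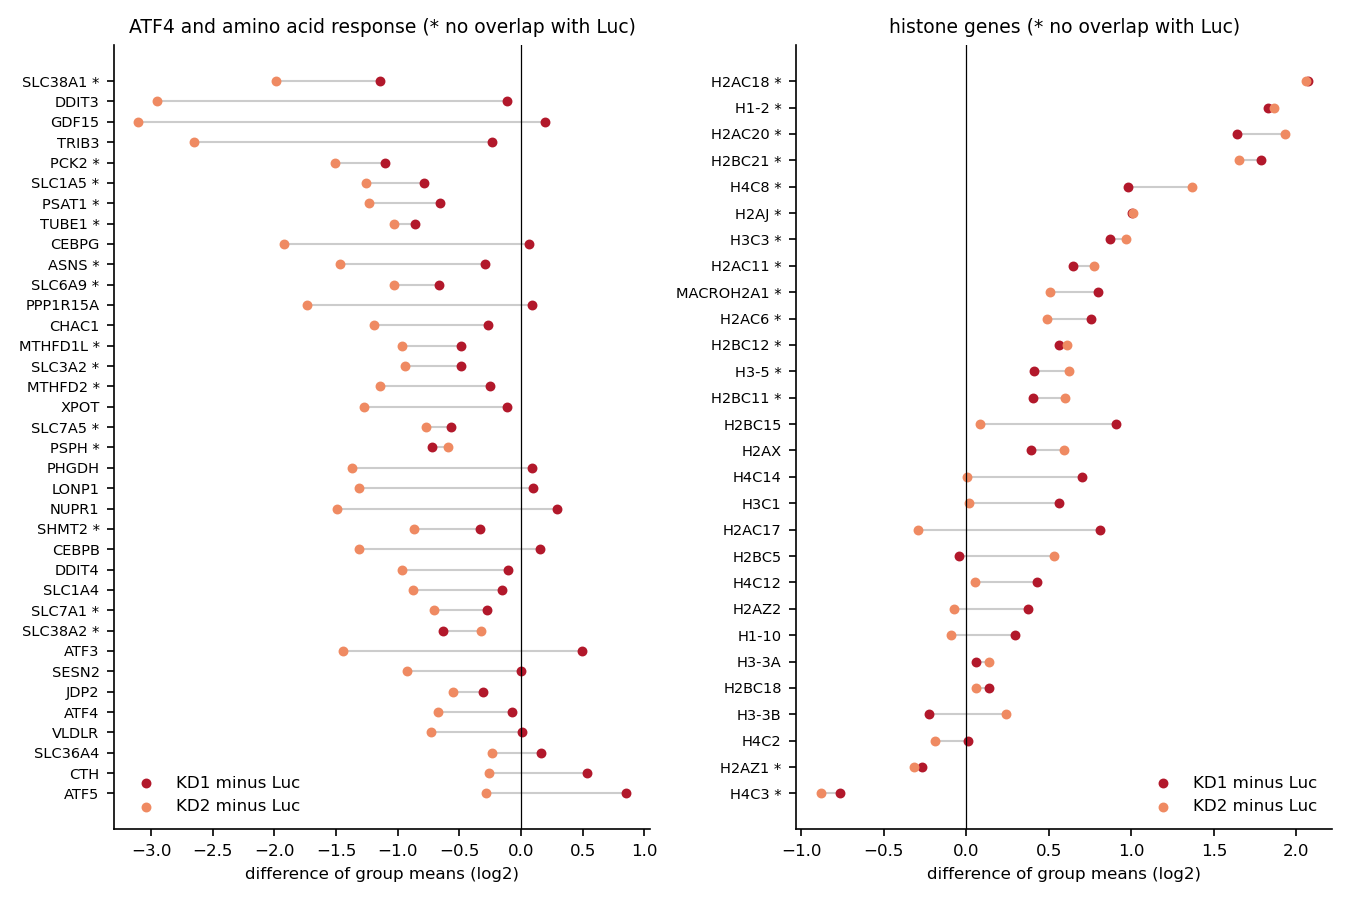
Log2 difference from Luc with KD1 and KD2 for each tested member of the ATF4 and amino acid response list (left) and of the histone genes (right); stars mark members whose 6 knockdown arrays do not overlap with the Luc arrays. The ATF4 members spread between a median of -0.19 with KD1 and -1.09 with KD2, while the histone medians are 0.56 and 0.50.

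ASNS and SLC38A1 promoters are given because the brightest probe of each gene lay below Luc on all 6 arrays and both hold TGATGNAA, the core of the composite site of ATF4 and C/EBP, here in capitals and searched on both strands. The windows are at chr7:97872359-97872658 (minus strand) for ASNS and chr12:46266467-46266766 (minus strand) for SLC38A1, in the same build and orientation.
ASNS: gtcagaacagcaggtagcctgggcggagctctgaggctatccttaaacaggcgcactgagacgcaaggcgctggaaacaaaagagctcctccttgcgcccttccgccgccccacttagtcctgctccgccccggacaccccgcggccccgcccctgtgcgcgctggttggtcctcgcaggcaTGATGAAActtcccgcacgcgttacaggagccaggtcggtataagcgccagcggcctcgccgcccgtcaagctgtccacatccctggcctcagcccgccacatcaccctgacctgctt
SLC38A1: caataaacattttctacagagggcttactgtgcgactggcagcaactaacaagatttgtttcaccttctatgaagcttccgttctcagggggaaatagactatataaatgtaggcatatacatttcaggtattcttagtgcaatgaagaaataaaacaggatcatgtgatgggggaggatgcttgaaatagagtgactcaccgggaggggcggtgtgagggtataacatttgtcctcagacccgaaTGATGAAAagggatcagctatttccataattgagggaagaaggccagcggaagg

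TGATGNAA was in 5 of 13 promoters (38.5%) of the separated ATF4 genes with a table entry, in 21.2% of the tested list of 33 and in 1.76% of all tested genes.

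Amino acid enzymes of the arginine and proline routes moved in both directions. ASS1, which makes argininosuccinate from citrulline, read 6.86, 7.19 and 6.94 on the KD1 arrays and 5.46, 5.28 and 4.87 on the KD2 arrays, against 8.00, 8.04 and 8.04 on the Luc arrays. All 6 arrays lay below Luc, with KD2 lower, and ASS1 fell 3.81-fold (log2 -1.93 ± 0.14 SE, adjusted p = 1.08e-04). A second probe of ASS1 was lower on all 6 arrays as well, with changes of -1.08 with KD1 and -1.22 with KD2. With the deposited values the log2 change of ASS1 was -0.73. ALDH4A1, which oxidises the proline breakdown product in mitochondria, was detected on no Luc array and read 6.42, 5.79 and 6.44 on the KD1 arrays and 6.26, 6.32 and 6.78 on the KD2 arrays, against 4.73, 4.83 and 4.84 on the Luc arrays. It was at least 2.36-fold higher against the detection floor, and it entered the test through the knockdown arrays alone. Its deposited values gave a log2 change of 0.34, and 1 of 2 other probes overlapped. OAT, which converts ornithine, rose by 0.65 (adjusted p = 0.00432), and PYCR1, the last step of proline synthesis, fell by 0.51 (adjusted p = 0.0097), although 2 dimmer PYCR1 probes overlapped with Luc. Of 18 tested members, 3 were higher and 3 lower without overlap (16.7% each way, against 6.94% and 7.4% of all features).

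Targets of the Hippo pathway, whose effectors YAP and TAZ drive adhesion and growth genes with TEAD factors, had 9 of 34 tested members below Luc on all 6 arrays (26.5%, against 7.4% of all features) and 3 above (8.82%, against 6.94%). Limma called 11 lower and 2 higher (38.2%, against 17.3%). But 15 of 34 differed between the siRNAs (44.1%, against 27.4% of all features). F3, tissue factor of the clotting cascade, read 7.69, 7.99 and 8.03 on the KD1 arrays and 8.00, 8.54 and 8.17 on the KD2 arrays, against 9.45, 9.47 and 9.26 on the Luc arrays, and fell 2.51-fold without overlap (log2 -1.33 ± 0.14 SE, adjusted p = 4.23e-04). CRIM1, a membrane regulator of BMP signals, read 8.22, 7.64 and 8.11 on the KD1 arrays and 7.97, 7.99 and 8.09 on the KD2 arrays, against 8.74, 9.00 and 9.30 on the Luc arrays, and fell 2.01-fold (log2 changes of -1.023 with KD1 and -0.997 with KD2; adjusted p = 0.00261). TGFB2, a growth factor that holds back proliferation of epithelia, was detected on 8 of 9 arrays and fell 2.3-fold (log2 -1.20 ± 0.22 SE, adjusted p = 0.00484). CCN1, a matricellular target, fell by 0.80 (adjusted p = 0.00237), and NT5E, the ecto-nucleotidase CD73, fell by 0.99 (adjusted p = 0.00162). AXL, a receptor tyrosine kinase, fell by 0.54 (adjusted p = 0.0142). WWTR1, which encodes TAZ, and TEAD2 rose, by 0.80 and 0.74. IGFBP3, a carrier of insulin-like growth factors, fell by 1.58 on average (adjusted p = 2.15e-04), with changes of -2.76 with KD1 and -0.40 with KD2, and its second probe overlapped with Luc.

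Of 26 tested matrix proteins, 5 lay below and 1 above Luc on all 6 arrays (23.1%, against 14.3% of all features). Limma called 18 different between KD1 and KD2 (69.2%, against 27.4%), and the medians were -0.78 with KD1 and 0.31 with KD2. COL5A1, a fibrillar collagen chain, read 6.92, 6.55 and 6.49 on the KD1 arrays and 7.59, 7.87 and 7.95 on the KD2 arrays, against 8.63, 8.91 and 8.71 on the Luc arrays and fell 2.87-fold (log2 -1.52 ± 0.14 SE, adjusted p = 2.15e-04). LAMB1, a laminin chain of basement membranes, fell by 0.88 (adjusted p = 0.0018), and TNC, tenascin C, fell by 1.29 (adjusted p = 4.00e-04), although a second TNC probe overlapped. MATN2, a matrix adaptor, fell by 2.07 (adjusted p = 2.90e-04), with changes of -3.34 with KD1 and -0.79 with KD2.

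Interferon-stimulated genes that separated from Luc lay on the low side. These genes answer antiviral interferons. Of 59 tested members, 11 lay below and none above Luc on all 6 arrays (18.6%, against 14.3% of all features on either side). Limma called 14 lower and 1 higher (25.4%, against 17.3% of all features), and 33 differed between the siRNAs (55.9%, against 27.4%). XAF1, a pro-apoptotic interferon target, was detected on all Luc arrays and on 2 knockdown arrays, and read 5.12, 5.39 and 5.05 on the KD1 arrays and 5.14, 4.97 and 5.45 on the KD2 arrays, against 6.69, 6.43 and 7.01 on the Luc arrays. Its groups stood apart and it fell 2.88-fold (log2 changes of -1.53 with KD1 and -1.52 with KD2; adjusted p = 3.58e-04). With the deposited values its log2 change was -0.37. SP100, a nuclear body protein, fell by 1.07 (adjusted p = 4.35e-04), although its other probes overlapped. IFIT2 and IFIT1, which bind viral RNA, were called lower, with unequal sizes. IFIT2 changed by -1.93 with KD1 and -0.29 with KD2 (adjusted p = 2.46e-04 for the mean), and IFIT1 by -1.93 with KD1 and -0.77 with KD2 (adjusted p = 4.11e-04). A dimmer IFIT1 probe overlapped with Luc. Of the rest, IFI44L (-0.85), HERC5 (-0.58), IFITM2 (-0.44) and IFITM3 (-0.40) also fell. The lower count was 6 under median scaling.

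Death receptors for TRAIL moved in opposite directions. TNFRSF10B, which encodes the receptor DR5, read 11.52, 11.54 and 11.42 on the KD1 arrays and 11.56, 11.60 and 11.55 on the KD2 arrays, against a mean of 10.24 ± 0.22 (SD, n = 3) on the Luc arrays. The groups did not overlap and it rose 2.44-fold (log2 1.29 ± 0.12 SE, adjusted p = 2.15e-04). Of its 2 other probes, 1 lay above Luc on all 6 arrays and 1 overlapped. TNFRSF10A, which encodes DR4, read 6.94, 6.61 and 6.87 on the KD1 arrays and 7.94, 8.39 and 8.15 on the KD2 arrays, against 8.66, 8.90 and 9.04 on the Luc arrays, and fell 2.6-fold, more with KD1 (adjusted p = 2.60e-04 for the difference). TNFSF10, the ligand TRAIL, read 7.19, 7.20 and 7.35 on the KD1 arrays and 7.20, 6.70 and 7.05 on the KD2 arrays, against 8.60, 8.22 and 8.11 on the Luc arrays, below Luc on all 6 arrays, and fell 2.3-fold (log2 -1.20 ± 0.15 SE, adjusted p = 8.46e-04). The survival genes BCL2 (-0.94, adjusted p = 0.00134), BIRC6 (-0.84, adjusted p = 0.0017) and BCL2L2 (-0.71, adjusted p = 0.0406) fell on the log2 scale. TNFRSF10D, a decoy receptor, rose by 0.67 (adjusted p = 0.0199). The list of 40 tested members held 3 higher and 6 lower without overlap (7.5% and 15%, against 6.94% and 7.4% of all features).

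Secreted inflammatory factors were divided as well. IL11, a cytokine of the IL6 family, read 6.04, 6.12 and 7.03 on the KD1 arrays and 6.44, 6.45 and 6.38 on the KD2 arrays, against 7.67, 7.79 and 8.25 on the Luc arrays. It fell 2.82-fold, with log2 changes of -1.51 with KD1 and -1.48 with KD2 (adjusted p = 0.00172). CCL5, a chemokine that attracts T cells, was detected on all Luc arrays and on 2 knockdown arrays and fell 2.21-fold (log2 -1.14 ± 0.16 SE, adjusted p = 0.00139). IL1A, an alarm cytokine, read 7.79, 7.63 and 7.44 on the KD1 arrays and 7.71, 7.52 and 7.47 on the KD2 arrays, against 6.99, 6.51 and 6.69 on the Luc arrays and rose 1.82-fold (log2 0.86 ± 0.14 SE, adjusted p = 0.00256). TRAF1, a signalling adaptor, rose 2.14-fold and NFKBIA, the inhibitor of NF-kB, by 0.50 (adjusted p = 0.0109). Of 39 tested members, 4 were higher and 6 lower without overlap (10.3% and 15.4%, against 6.94% and 7.4% of all features), and limma called 8 each way (41%, against 17.3%). Between KD1 and KD2 limma called 20 of 39 different (51.3%, against 27.4% of all features). With median scaling over all probes 1 member was higher and 7 lower without overlap.

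KDM5B, the paralogue of KDM5A, read 10.50, 10.40 and 10.33 on the KD1 arrays and 10.24, 10.22 and 10.20 on the KD2 arrays, against 9.87, 10.02 and 9.97 on the Luc arrays. All 6 arrays lay above Luc by a small gap, and KDM5B rose 1.28-fold (log2 0.36 ± 0.10 SE, adjusted p = 0.0324), a call that was lost in 10 alternatives with adjusted p of 0.0514 to 0.308. KDM3B, a lysine 9 demethylase, rose by 0.58 (adjusted p = 0.0351), a call lost in 8 alternatives with adjusted p of up to 0.175. KDM4A fell by 1.03 for the mean of both siRNAs (adjusted p = 9.88e-04), with changes of -1.48 with KD1 and -0.57 with KD2. It was detected on no KD1 array, so the sizes of its KD1 change and of the mean are uncertain. Of 12 tested demethylases, 2 were higher and 1 lower (25%, against 14.3% of all features), and with median scaling over all probes none was higher and 1 lower. Among 49 tested members of repressor complexes, 6 were higher and 3 lower (18.4%), against 3 higher and 5 lower with that scaling. HDAC3, a histone deacetylase, read 9.84, 9.86 and 9.62 on the KD1 arrays and 10.14, 9.91 and 9.93 on the KD2 arrays, against 8.66, 8.89 and 8.57 on the Luc arrays, and rose 2.26-fold without overlap (log2 1.18 ± 0.12 SE, adjusted p = 3.22e-04). JARID2, MTF2 and RBBP7, which serve the Polycomb repressive complex 2, rose by 0.97, 0.98 and 0.87 (adjusted p = 6.69e-04, 0.00925 and 0.00518). KDM5B, KDM3B, MTF2 and RBBP7 overlapped with Luc under median scaling over all probes.

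**Figure D3:**
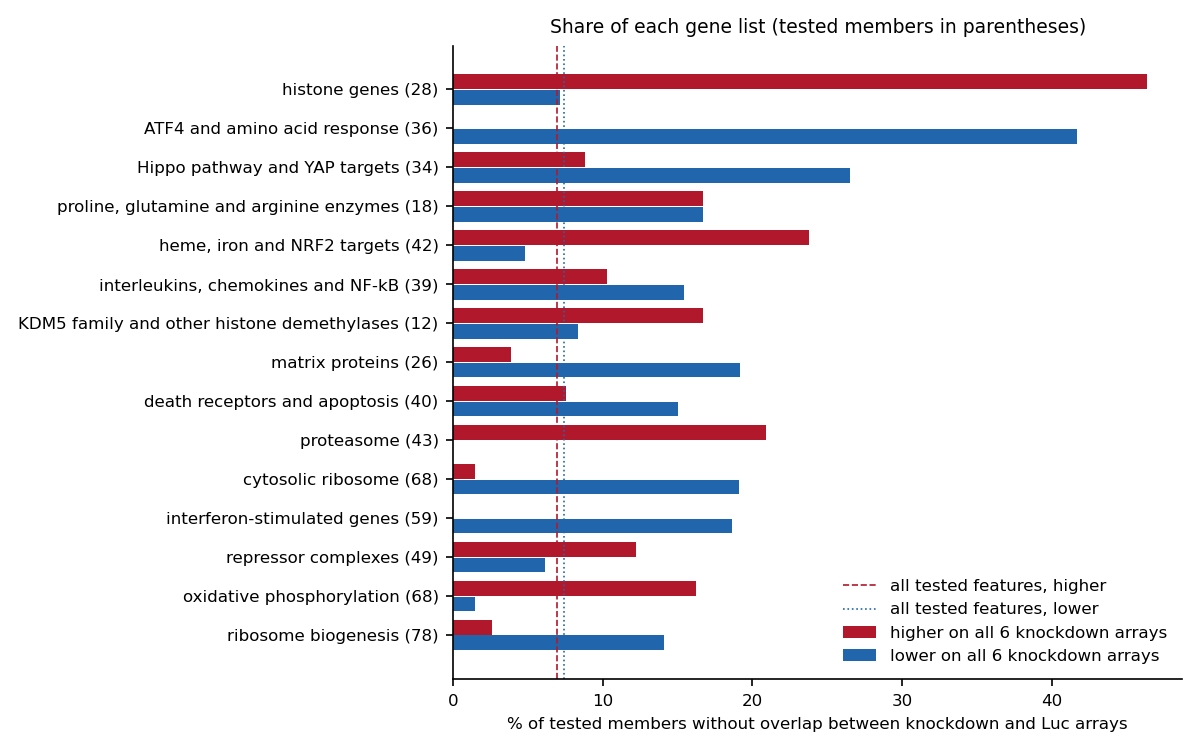
Share of the tested members of each gene list whose 6 knockdown arrays lie above (red) or below (blue) all 3 Luc arrays; dashed and dotted lines mark 6.94% and 7.4% of all tested features. Histone genes reach 46.4% higher and the ATF4 list 41.7% lower.

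Lists for large cell machines leaned to 1 side by small steps, and these counts moved with the scaling. Their limma shares were below or near the 17.3% of all features. Limma called 8 higher and 1 lower for oxidative phosphorylation (13.2%) and 7 higher and 0 lower for the proteasome (16.3%). It called 2 higher and 7 lower for the cytosolic ribosome (13.2%) and 2 higher and 14 lower for ribosome biogenesis (20.5%). Of 68 tested genes of oxidative phosphorylation, 11 were higher and 1 lower without overlap (16.2% and 1.47%, against 6.94% and 7.4% of all features). Their median change was 0.18, and 20 were higher with median scaling and 5 with median scaling over all probes. SDHC, a subunit of succinate dehydrogenase, rose by 0.69 (adjusted p = 0.00289), and NDUFA1 of complex I by 0.67 (adjusted p = 0.00484). UQCR10 of complex III rose by 1.27, but its 2 other probes overlapped with Luc. Of 43 proteasome genes, 9 were higher and none lower (20.9% higher, against 6.94%), with 12 and 3 higher under those scalings. PSMD3, a lid subunit, rose by 1.05 (adjusted p = 0.0013). Of 68 cytosolic ribosome genes, 13 were lower and 1 higher (19.1% and 1.47%, against 7.4% and 6.94%), but 2 were lower with median scaling. RPL34 gave no settled direction, since its brightest probe fell by 0.78 and its second probe lay above Luc by 2.22. Of 78 ribosome biogenesis genes, 11 were lower and 2 higher (14.1% and 2.56%, against 7.4% and 6.94% of all features), with 8 lower under median scaling and 22 under median scaling over all probes. PNO1, an assembly factor of the small subunit, had the widest gap of the 15 named lower genes and read 6.78, 7.00 and 6.62 on the KD1 arrays and 7.37, 7.27 and 7.24 on the KD2 arrays, against 8.86, 8.88 and 8.96 on the Luc arrays. It fell 3.61-fold (log2 -1.85 ± 0.11 SE, adjusted p = 3.49e-05).

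Other named genes with a large gap belonged to varied functions. OTUB2, a deubiquitinase, read 8.84, 8.86 and 9.08 on the KD1 arrays and 9.29, 9.38 and 9.65 on the KD2 arrays, against 6.93, 7.19 and 7.24 on the Luc arrays and rose 4.18-fold (log2 2.06 ± 0.13 SE, adjusted p = 3.49e-05). SF3B5, a splicing factor subunit, rose 3.05-fold (adjusted p = 1.43e-04). RPA1, which coats single-stranded DNA, rose 2.41-fold (adjusted p = 2.15e-04) and its second probe lay above Luc on all 6 arrays too. CCNA1, a cyclin of germ cells and some tumours, read 7.59, 7.59 and 7.57 on the KD1 arrays and 9.03, 9.23 and 8.96 on the KD2 arrays, against 6.63, 6.31 and 6.47 on the Luc arrays, so that it rose 3.63-fold with the larger part under KD2 (1.11 with KD1 and 2.61 with KD2). MLX, a partner of the glucose-sensing MONDO factors, rose 2.9-fold (adjusted p = 4.69e-04), APCDD1L 2.96-fold (adjusted p = 2.46e-04) and NTAQ1, which deamidates N-terminal glutamine, 2.6-fold (adjusted p = 1.46e-04).

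On the lower side, MAPK8, the stress kinase JNK1, read 5.96, 6.59 and 6.09 on the KD1 arrays and 6.26, 6.82 and 6.21 on the KD2 arrays, against 7.83, 7.91 and 7.90 on the Luc arrays. It fell 2.95-fold without overlap (log2 -1.56 ± 0.18 SE, adjusted p = 4.74e-04). CLGN, an endoplasmic reticulum chaperone of germ cells, fell 2.61-fold (adjusted p = 2.76e-04), TMX1, a thioredoxin of that organelle, 4-fold (adjusted p = 7.07e-05) and PRKCE, a protein kinase C, 2.86-fold (adjusted p = 1.45e-04). MSRB3, which repairs oxidised methionine, fell 3.45-fold (adjusted p = 3.03e-04), and a dimmer probe overlapped with Luc. MAN1A2, a Golgi mannosidase, fell 2.63-fold (adjusted p = 1.00e-03) and GPR180 2.79-fold (adjusted p = 4.10e-04), each with another probe that overlapped. MDK, the growth factor midkine, read 10.94, 10.70 and 10.78 on the KD1 arrays and 10.12, 10.48 and 10.60 on the KD2 arrays, against 11.70, 11.86 and 12.11 on the Luc arrays and fell 2.44-fold (adjusted p = 4.35e-04), with 2 of 3 other probes also below Luc on all 6 arrays. GPCPD1, ENPP4 and MB, myoglobin, fell 2.45-fold, 2.05-fold and 2.17-fold.

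Other probes of the same genes were a measure that the rule did not use, though they share the RNA and the detection filter. Each had to be detected on at least 3 arrays of any group, so a dim probe could enter through the brighter group alone. The shares below are not corrected for that, and its part in them was not tested. Of 258 other detected probes of 206 higher genes, 81 lay above Luc on all 6 arrays (31.4%) and 3 below, and 231 had the same sign (89.5%). Of 319 other probes of 262 lower genes, 96 lay below (30.1%), 2 above, and 270 had the same sign (84.6%). Over all 3079 such probes, 5.59% lay above and 6.4% below. Among 2502 other probes of genes that overlapped with Luc, 69.5% had the same sign as the probe used.

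**Figure D4:**
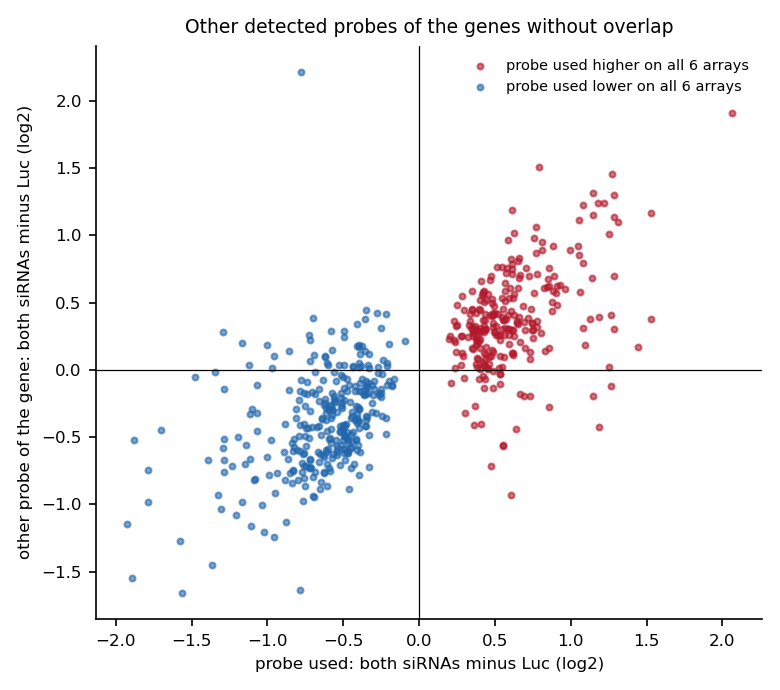
Mean log2 change of both siRNAs against Luc for the probe used (horizontal) and for each other detected probe of the same gene (vertical), for higher and lower genes. Of these points, 231 of 258 and 270 of 319 share the sign of the probe used (89.5% and 84.6%, against 69.5% for genes that overlapped with Luc). RPL34 is the lower gene at 2.22.

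Both siRNAs were compared directly in the same fit, which holds no Luc array in that contrast. Over all features limma called 27.4% different between KD1 and KD2, against 22.9% of the 1876 separated features (429) and 28.1% of the 11200 others. Of the 908 higher features 165 differed (18.2%), with KD2 larger for 101 and KD1 for 64. Of the 968 lower features 264 differed (27.3%), with KD2 larger for 165 and KD1 for 99. KD1 and KD2 share the Luc arrays, so their changes against Luc are given side by side and not correlated.

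The motif bound by the ARID domain of KDM5A, CCGCCC on either strand, was in 71% of 659 promoters of higher genes, 73.9% of 713 of lower genes and 70% of all 8462 tested genes with a promoter. Median GC content was 64.3%, 66% and 65%, and a match is a description of these 300 bases only. Of 10264 tested genes, 1618 lay without overlap. By chromosome the share ran between 12.1% on chromosome 15 and 19.5% on chromosome 6 (9.65% higher and 9.82% lower), with 18.5% on chromosome 9.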

How the data were processed

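RNA of 9 samples was read on bead arrays. The deposited signal intensities are linear and not normalized, per the file headers, with medians that differ between arrays, and a detection p-value was deposited beside each intensity, per the file headers. The deposited series values are log2 values with the same quantiles on every array, and were used as an alternative. The submitters' processing notes name lumi; its steps are not stated there.

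The intensities were background-corrected in limma 3.58.1 (R 4.3.3) by a normal-exponential model with the negative-control level inferred from detection p-values, an offset of 16 was added, the arrays were quantile-normalized and log2 was taken. Of 48799 probes, 28094 had 1 symbol, 13 several and 20692 none. The brightest probe stood for each symbol, and symbols were updated from a RefSeq table of GRCh38.p14.

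The limma functions lmFit and eBayes gave each of the 3 groups its own mean over all 9 arrays. Tests were two-sided, and p-values were adjusted by Benjamini-Hochberg over 13076 features. Folds of single genes use the detection floor where no Luc array, or none of the 6 knockdown arrays, was detected. The counts of features with at least 2-fold use the fitted changes without that floor. Promoters came from a RefSeq table of the same assembly, matched by symbol for 8462 of 10264 tested genes. The fit was tested on simulated data with normal spread. Limma called 11.9% of 67 genes with a set log2 change of 0.5, 85.1% of 67 at 1 and 100% of 66 at 2. Of the genes set at 0.5, 53.7% lay without overlap. Among 12876 features with no set change, 0.0311% were called and 2.33% lay without overlap.

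The genes and the 52 lists were chosen with earlier results of these data known. The text names the 15 higher and the 15 lower genes with the largest gap, up to 4 separated members of each described list with the largest change, and the edges of the rule; other genes were chosen after their values were seen. Alternatives were the scaling, the background, the detection filter, every probe as a feature, array weights, a replicate block and leaving out each array. No comparison used a p-value over a gene list.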

Additional observations from a re-analysis of the deposited data

Results flagged for a closer look

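Of the named genes, 29 differed between the siRNAs, KD1 minus KD2 on the log2 scale, by limma with an adjusted p under 0.05 over all tested features. All 29 lay on 1 side of Luc on all 6 arrays. Among genes below Luc, the fall was larger with KD2, a positive difference, for ASS1 (1.79), NOC3L (0.71), PRKCE (0.73), PSAT1 (0.57), PYCR1 (0.56), RPL8 (0.34), RPS2 (0.57), RPS23 (0.73), SLC1A5 (0.47), SLC38A1 (0.85), SP100 (0.60) and TNC (1.08). It was larger with KD1, a negative difference, for COL5A1 (-1.15), IFIT1 (-1.16), IFIT2 (-1.64), IGFBP3 (-2.37), KDM4A (-0.90), LAMB1 (-0.65), MATN2 (-2.55), MSRB3 (-0.87), PNO1 (-0.49), SLC40A1 (-1.35), TMX1 (-1.51) and TNFRSF10A (-1.35). Among genes above Luc, the rise was larger with KD2 for CCNA1 (-1.49), HMOX1 (-0.98), OTUB2 (-0.51) and PSMB2 (-0.50), and with KD1 for TRAF1 (0.97). MATN2 and IGFBP3, with the largest differences, read -0.79 and -0.40 against Luc with KD2. These orders rest on the brightest probe of each gene. Other probes of ASS1, IFIT1, IGFBP3, RPL8, SLC38A1, SLC40A1 and TNC kept the order of KD1 and KD2. Those of LAMB1, PYCR1 and SP100 reversed it, and those of MSRB3 went both ways. The second LAMB1 probe read -1.02 with KD1 and -1.24 with KD2, and the second ASS1 probe a near-equal -1.08 and -1.22. The KD1 arrays also lay at other slide positions, which cannot be told apart from KD1.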

How the results depend on the processing

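The named genes kept the sign of their change in all alternatives run, and the 30 genes with the largest gap kept their limma call in each that tested them, but the sizes moved: with the deposited values 16 of the 30 were smaller by over 1.5 times, among them GPCPD1 (-0.32), MAN1A2 (-0.37) and MB (-0.28). Of 80 named genes without overlap, 13 overlapped with Luc under 1 scaling: LIMS2, RPS2, RPS23 and SLC22A17 with median scaling, and AUTS2, JPT1, KDM3B, KDM5B, MTF2, PSMB10, PSMB2, RBBP7 and TRAF1 with median scaling over all probes. Features called numbered 241 with a log2 change of at least 1, and features without overlap 175 with a gap of at least 0.5. With no background correction limma called 1536 higher, against 1023. Median scaling over all probes, added after seeing the data, gave 465 higher and 2266 lower calls, and 360 higher and 1715 lower without overlap, and shifted the median of all features by -0.146. Median scaling over probes detected on all arrays gave 1383 higher and 1090 lower calls, and shifted it by 0.0689. Leaving out 1 array gave 1291 to 2178 calls (600 to 992 higher, 691 to 1186 lower), with the lowest without Luc replicates 1 (1389) and 2 (1291). The labels do not say whether replicate numbers pair the samples. Deviations from group means correlated from -0.0237 to 0.107 between same-number arrays and from -0.0901 to 0.0644 between others. With 3 arrays per group these values cannot settle it. With the replicate block limma called 2068 features (939 higher, 1129 lower), 3376 between KD1 and KD2, and 379 among separated features. The cause of these shifts was not tested. Among named genes, 52 values lost their call under an alternative, 19 gained one and 1424 stayed on their side. Dim probes near the detection floor limit the precision, as does the number of arrays.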

Other observations

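Cell cycle genes separated from Luc in both directions. Of 60 tested genes of S phase and DNA replication, 9 lay above Luc on all 6 knockdown arrays, among them RPA1, MCM4 and PCNA, and 4 lay below, among them CDC45 (15% and 6.67%, against 6.94% and 7.4% of all features). Median scaling gave 13 higher and 3 lower, and median scaling over all probes 2 higher and 11 lower. Of 70 mitosis genes, 10 lay above, including KIF20A and FOXM1, and 9 below, including TOP2A and CENPF (14.3% and 12.9%), against 4 higher and 18 lower with median scaling over all probes. Second probes of MCM4, PCNA and FOXM1 overlapped with Luc. Limma called 9 higher and 6 lower of the S phase genes and 10 higher and 9 lower of the mitosis genes (25% and 27.1%, against 17.3% of all features).

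Of 30 genes of cholesterol synthesis, SQLE, FDPS, NSDHL and INSIG1 lay above Luc on all 6 arrays and ABCA1, a cholesterol exporter, below. These 5 genes (16.7%) are near the 14.3% of all features, a second SQLE probe overlapped with Luc, and median scaling over all probes gave none higher and 3 lower. Of 19 tested epithelial junction and keratin genes, 5 lay below and none above (CLDN1, KRT7, PKP2, KRT80 and EPCAM; 26.3%, against 7.4% of all features), and of 18 mesenchymal genes, 4 lay below and none above (MSRB3, NT5E, CALD1 and AXL; 22.2%). Both other probes of CALD1 overlapped with Luc, as did the dimmer EPCAM probe. These lists were chosen for description after their values were seen.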
